A study of Drosophila melanogaster with 8 samples.

Results

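The 49 genes described here are those whose reads in control testes already lay mostly at the poly(A) site nearest the coding sequence. They were chosen from 529 entries, an entry being a gene with the transcript it was listed under, such as JIL-1-PB. Each had the midpoints of its outermost site windows at least 200 and under 1000 bp apart, 50 or more reads summed over the 2 control libraries, and over 50% of those reads at the most proximal window. Spacing and depth alone were met by 343 entries, so that 294 others form the set the 49 are compared with. The share of an entry's reads at its most proximal window is called proximal usage below, and since the control shares chose the genes, usage against control is given as a description that supports nothing by itself.

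The libraries were 3' end libraries (QuantSeq forward) of poly(A) RNA from testes of bam mutants, 2 libraries in each of 4 groups, and each library pooled roughly 150 testis pairs. Males of all groups, the controls too, were nosGal4/Y with the mutant chromosomes bam86,bamGal4/bam1, and so carried both Gal4 drivers and no working bam. The cbc group added UAS>cbc-V5/+, the PCF11 group UAS>PCF11-RF-HA/+ (1 isoform of the protein), and the cbc plus PCF11 group UAS>cbc-V5+PCF11-RF-HA/+. The control group was +/+ at that place and had no UAS transgene. Crosses stood for 3 days at 25 °C and the progeny at 29 °C until dissection. Both drivers act in early germ cells, and without bam these cells go on dividing and do not become spermatocytes, so the testes hold few later germ cells. The labels do not say whether the duplicates came from separate crosses, and the p-values cover the spread between libraries, which may be technical. The transcripts of cbc and Pcf11 were not analysed here, so overexpression itself was not checked.

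Most genes of a fly can end their mRNA at more than 1 poly(A) site, and cleavage at the proximal one gives a shorter 3' UTR. Cleavage factor II, made of Pcf11 and cbc (the fly homologue of human CLP1), takes part in the cut. Longer 3' UTRs can carry more sites for microRNAs and RNA-binding proteins, and testis mRNAs are known for short ones.

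The 8 libraries had 238162 to 333675 reads at the listed sites, with no library standing apart in depth. Of the lists of marker genes, Rbp9, simj and twe had entries among the germ cell genes, and chinmo and zfh1 among the cyst and hub genes. The tables analysed held none of the list of sheath, muscle and fat genes, and the fewest reads of these 5 genes in any library were 78, in twe.

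In the controls the 49 genes spanned from just over the threshold to nearly complete proximal usage. Pooled over both control libraries, 15 genes lay at 50 to 60%, 15 at 60 to 70%, 8 at 70 to 80%, 6 at 80 to 90% and 5 over 90%. The genes just inside the threshold were Deaf1 at 50.8%, tst (an RNA helicase) at 51.1%, Dic1 (a mitochondrial dicarboxylate carrier) at 51.3% and Marf (the fly mitofusin) at 52%. Just outside it lay Usp16-45 and cdi at 49.8% each, mei-W68 at 48.8% and mRpS5 at 48.4%. The highest were bin3, ewg, CG2201, CG7766 and Sec24AB. Control reads ran from 71 (numb) to 7559 (CG46280), with a median of 684. At that depth the exact 95% binomial interval of pooled control usage was 63.5 to 65.7% for CG46280 and 55.5 to 78.2% for numb, which covers counting error only.

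The windows of the 49 genes lay near annotated transcript ends about as often as those of the others. The median spacing of the outer windows of the 49 was 511 bp. The proximal window lay in an annotated 3' UTR in 48 of 49 genes and in another exon in CG5589. The distal window lay in a 3' UTR in 44 and downstream of the annotated transcript in PIG-L, MED26, DOR, qkr58E-1 and pre-mod(mdg4)-U. An annotated transcript end lay within 50 bp of the distal window in 35 genes (71.4%), and within 50 bp of the proximal window in 12 (24.5%). In the 294 other entries these shares were 72.1 and 20.4%. The proximal window was thus the one used most in the controls, while in 37 of the 49 genes no annotated end lay near it. Windows of 16 genes overlapped another gene, 13 of them a gene on the opposite strand, and the reads were counted without strand, so reads of such partners cannot be told apart.

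The median proximal usage of the 49 genes was not far from control in any of the 3 overexpression genotypes, while the mean usage of single genes lay from 53.6 percentage points below it (JIL-1 with cbc plus PCF11) to 36.1 above it (Deaf1 with cbc). The median usage over the 49 was 61.9 and 64.5% in the cbc libraries, 65.0 and 68.2% in the PCF11 libraries, 63.9 and 66.8% in the cbc plus PCF11 libraries, and 63.1 and 71.8% in the control libraries. The control libraries were the highest and the second lowest of the 8, so every group overlapped them. By gene, the median change from control was -4.12 points with cbc (30 genes lower, 19 higher), -2.40 with PCF11 (27 lower, 22 higher) and -2.25 with cbc plus PCF11 (29 lower, 20 higher). In the 294 other entries, whose usage in control has a median of 11.8%, these medians were 0.73, 1.54 and 0.89. Without control library 2 the medians of the 49 were -2.50, -0.93 and -2.26, and without control library 1 they were -6.08, -3.79 and -4.08. Leaving out PCF11 library 2 gave -0.61 with PCF11, and leaving out cbc plus PCF11 library 2 gave -0.84, or -3.85 without its library 1. Without the genes that overlap another the cbc median was -2.13, and a threshold of 60% in place of 50% gave -5.58 with cbc plus PCF11.

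The sign of these medians differed between a choice of genes by control libraries and a choice by overexpression libraries. When entries were chosen as over 50% in an overexpression genotype instead of in control, by the same spacing and read minimum, the median change was 7.68 points with cbc (55 entries), 7.30 with PCF11 (68 entries) and 8.13 with cbc plus PCF11 (61 entries). Those choices share 35, 42 and 39 entries with the 49, which is 71.4, 85.7 and 79.6% of the 49 and 63.6, 61.8 and 63.9% of the entries chosen. The overexpression libraries that chose these entries also entered their change, which moves it upward, so nothing is read from that sign. A choice by 1 control library, with the change measured against the other, kept the sign of the first medians. Genes chosen by control library 1 (46) had medians of -4.36 with cbc, -3.01 with PCF11 and -2.12 with cbc plus PCF11 against control library 2, and the median of control library 2 minus control library 1 in them was -1.30. Genes chosen by control library 2 (53) had medians of -4.46, -1.18 and -3.57 against control library 1, and the median of control library 1 minus control library 2 was -3.79. Gene by gene, the control library that took no part in the choice thus lay lower in the median, although in the first choice its median usage was the higher one (68.6% in control library 2 against 64.7% in control library 1; in the second choice 61.2% in control library 1 against 68.3% in control library 2). For PCF11 and cbc plus PCF11 in the second choice, that gap was larger than the change itself. Both choices were measured with the same overexpression libraries, so nothing is read from the kept sign either.

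**Figure D1:**
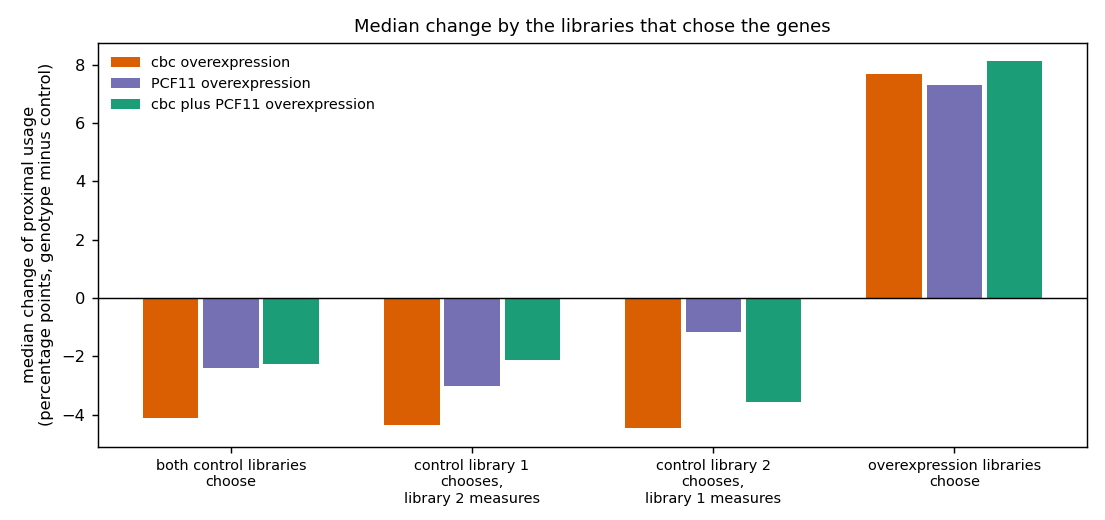
Median change of proximal usage from control (percentage points, y axis; bars start at 0) in cbc, PCF11 and cbc plus PCF11 overexpression, for genes chosen as over 50% proximal by both control libraries, by 1 control library with the other as the baseline, or by the overexpression genotype's own libraries. The medians lie between -4.46 and -1.18 points in the choices by control libraries and between 7.30 and 8.13 in the choice by overexpression libraries.

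Grouped by control usage, the genes nearest 50% had higher usage and those nearest 100% lower usage in the overexpression genotypes, but the same control values set the groups and enter the changes, so nothing is read from this order. The 15 genes at 50 to 60% in control had median changes of 2.93 points with cbc, 4.73 with PCF11 and 5.61 with cbc plus PCF11. At 60 to 70% the medians were -3.71, -3.17 and -6.19, and at 70 to 80% they were -9.43, -2.48 and -8.17. The 6 genes at 80 to 90% had -4.91, -0.24 and 0.97, with 6, 3 and 3 of them lower. The 5 genes over 90% had -7.06, -5.90 and -6.95, with all 5 lower in each genotype. The proximal site kept over 50% of the reads, by the mean of the 2 libraries, in 36 of the 49 genes with cbc, in 42 with PCF11 and in 39 with cbc plus PCF11. The controls were also the least even pair for these genes. Their 2 libraries lay over 15 points apart in 15 of the 49 genes, against 5 with cbc, 4 in PCF11 testes and 5 with cbc plus PCF11, and in 29 of the 294 other entries. The choice read these same control libraries, and the 294 others had much lower control usage, so nothing is read from these counts.

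**Figure D2:**
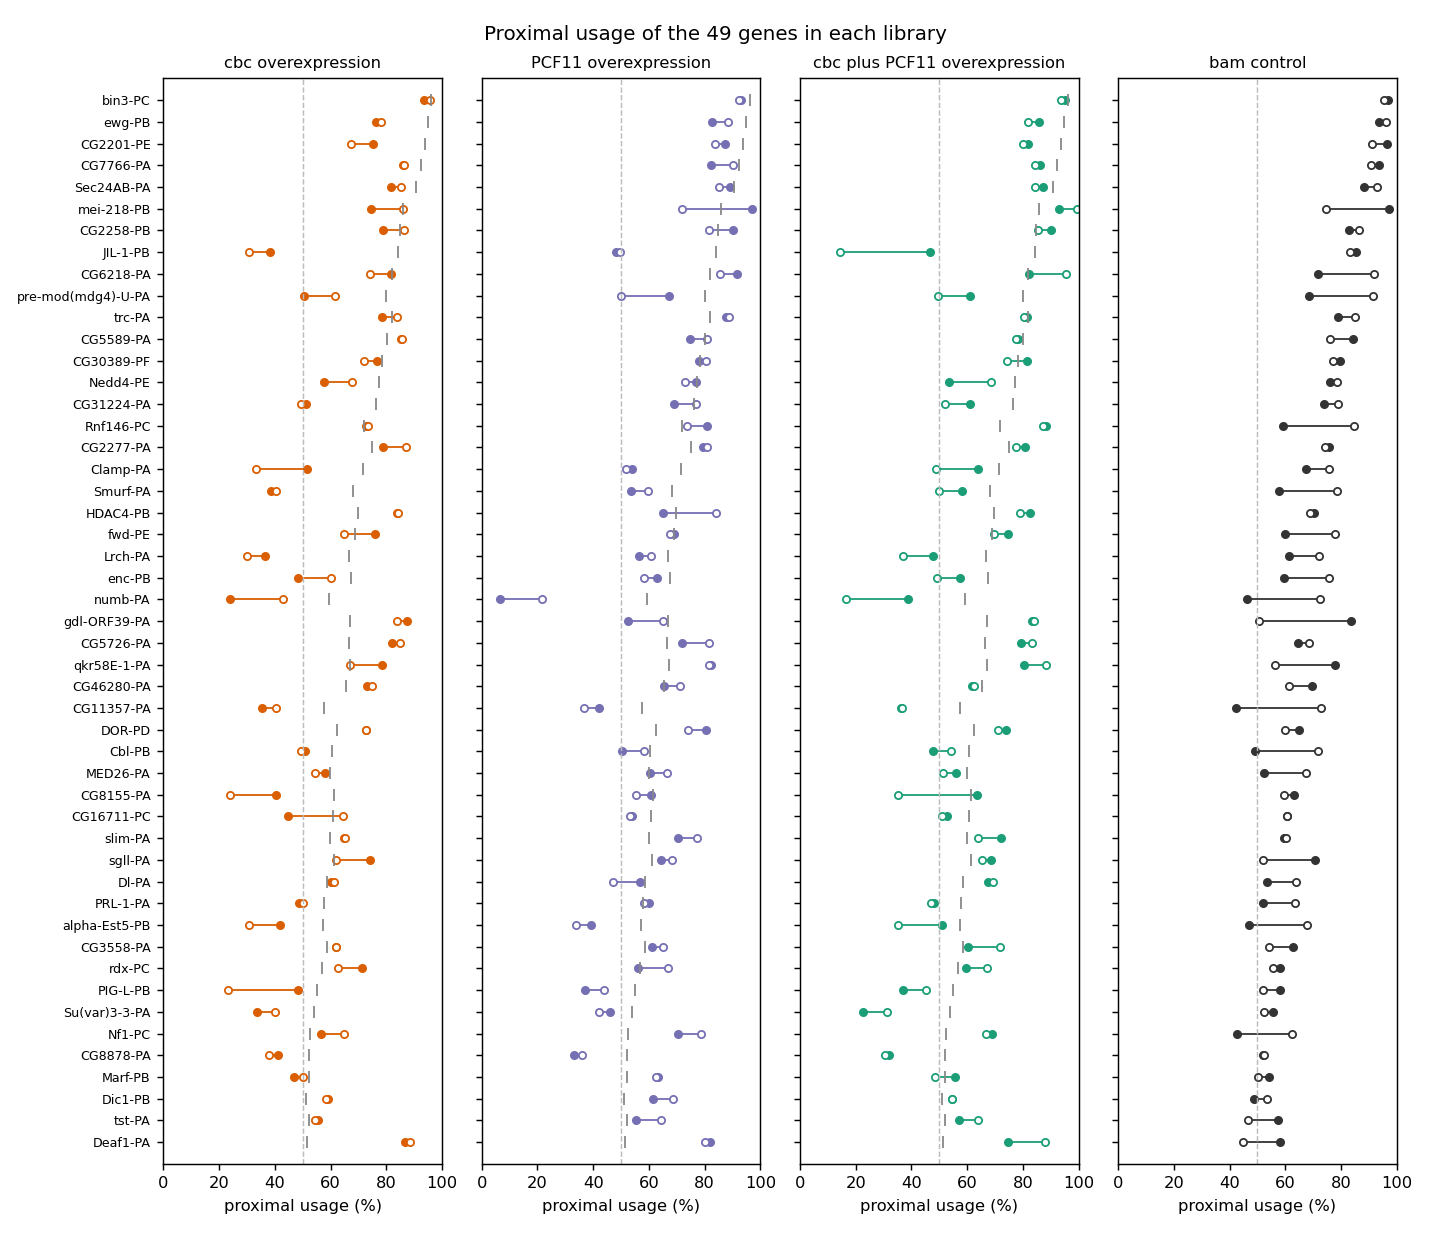
Proximal usage (%, x axes) of each of the 49 genes (rows, ordered by pooled control usage) in cbc, PCF11, cbc plus PCF11 and control testes; filled points are library 1, open points library 2, grey ticks the control mean and the dashed line 50%. JIL-1, ewg and CG8878 lie left of their controls in every overexpression library and Deaf1 lies right of them, while many control pairs, such as CG11357, gdl-ORF39 and Smurf, are wide apart.

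Counts of genes past both controls were read only as a description, because the controls chose the genes. Both cbc libraries lay below both controls in 22 of the 49 genes and above both in 11; over all 529 entries the shares were 20.4 and 28.2%. With PCF11 these were 15 below and 10 above (16.1 and 35.9% of all entries), and with cbc plus PCF11 19 below and 12 above (21.4 and 32.1%). All 6 overexpression libraries lay below both controls in 13 genes (10.4% of all entries), namely CG11357, CG2201, CG7766, CG8878, Clamp, JIL-1, Lrch, PIG-L, Su(var)3-3, bin3, ewg, numb and pre-mod(mdg4)-U. They lay above both in 6 genes (18.5% of all entries), namely CG2277, CG5726, DOR, Deaf1, Dic1 and slim. The usage model over all 516 entries tested (edgeR's quasi-likelihood test) called 3 of the 49 with cbc (7.56% of all entries were called), 3 with PCF11 (10.5%) and 4 with cbc plus PCF11 (10.3%). These counts, too, rest on the controls that chose the genes, and nothing is read from them. In the authors' deposited table, 26 of the 49 were called with cbc (47.7% of its entries were called), 23 with PCF11 (52%) and 27 with cbc plus PCF11 (55%).

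A lower proximal usage came about in unlike ways among the 13 genes. Reads are given from here on as CPM (counts scaled to a common total of reads at the listed sites, with TMM factors), so that levels are relative to the listed entries and compare libraries, not genes. With cbc, 10 of the 13 had fewer CPM at the proximal window than control and 11 had more at the distal windows, by over 2-fold in 8. With PCF11 these were 10, 11 and 5 genes, and with cbc plus PCF11 12, 10 and 8. Among the 6 genes with higher usage, proximal CPM was above control in 4 with cbc, 5 in PCF11 testes and 5 with cbc plus PCF11. Over all 49 the median fold of proximal CPM was 0.90, 0.89 and 0.77, and that of distal CPM 1.04, 0.93 and 0.91.

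**Figure D3:**
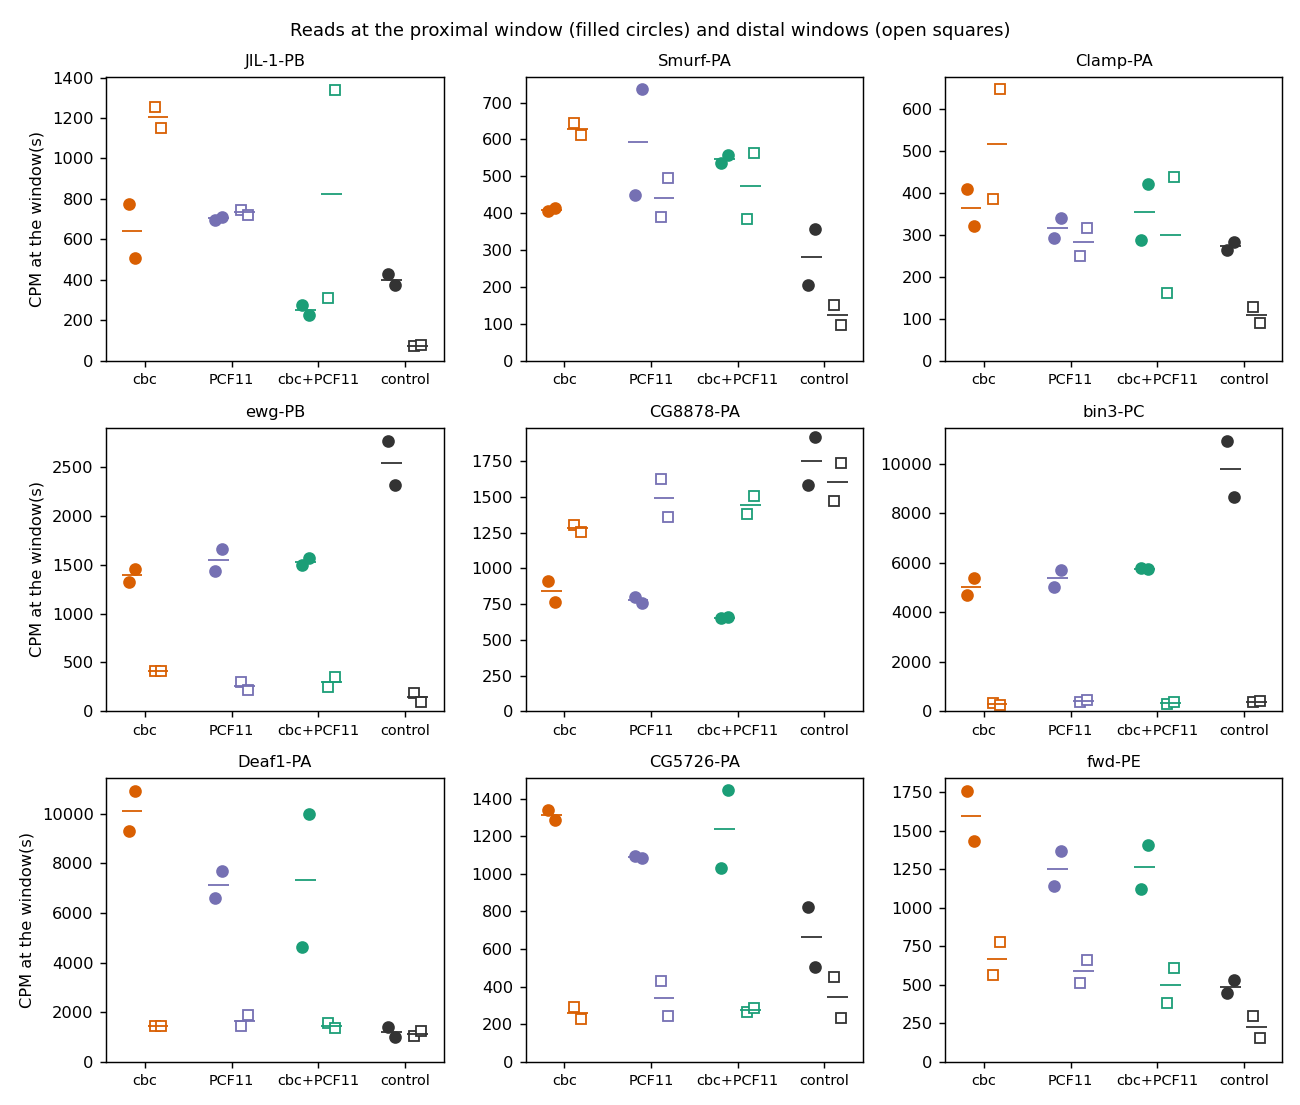
CPM at the proximal window (filled circles) and summed over the distal windows (open squares) in the 2 libraries of cbc, PCF11, cbc plus PCF11 and control testes, with short lines at the group means, for 9 genes. JIL-1, Smurf and Clamp have more distal reads than control in all overexpression libraries, ewg, CG8878 and bin3 have fewer proximal reads, Deaf1 and CG5726 have more proximal reads, and fwd has more of both.

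Among the genes of chromatin and transcription, JIL-1 had the largest drop in usage of the 49 with cbc and with cbc plus PCF11. JIL-1 encodes the kinase that phosphorylates histone H3 on interphase chromatin, and its windows lie at chr3L:11080244-11080274 (proximal) and chr3L:11079473-11079503 (distal) on the minus strand of BDGP6, both in its 3' UTR. Its proximal usage was 38.1 and 30.6% with cbc, 48.2 and 49.7% in PCF11 testes and 46.8 and 14.4% with cbc plus PCF11, against 85.3 and 83.1% in control. All 6 libraries lay below both controls, and the cbc plus PCF11 libraries were far apart. The distal window had 1255 and 1151 CPM with cbc, 746 and 720 in PCF11 testes and 310 and 1339 with cbc plus PCF11, against 74.0 and 75.9 in control. No overexpression library overlapped the controls there, and the group means were 16.1-, 9.78- and 11-fold the control mean. At the proximal window the means were 1.60-, 1.75- and 0.621-fold. The summed reads of JIL-1 (277 in control) rose in all 3 genotypes, by a log2 fold change of 1.96 ± 0.33 with cbc (SE; edgeR, adjusted p = 0.000396), 1.60 ± 0.33 with PCF11 (0.00215) and 1.17 ± 0.33 with cbc plus PCF11 (0.0133). The PCF11 call for JIL-1 was lost without PCF11 library 1.

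Deaf1, which encodes a DNA-binding transcription factor, went the other way and gained reads at its proximal window. Its windows lie at chr3L:19829425-19829455 and chr3L:19829926-19829956 on the plus strand, in the 3' UTR. Proximal usage of Deaf1 was 86.7 and 88.3% with cbc, 82.1 and 80.3% in PCF11 testes and 74.7 and 88.1% with cbc plus PCF11, against 58.0 and 44.8% in control. The proximal window had 9309 and 10938 CPM with cbc, 6597 and 7690 in PCF11 testes and 4643 and 9993 with cbc plus PCF11, against 1414 and 1014 in control. Every overexpression library was above both controls, at means of 8.34-, 5.89- and 6.03-fold, while distal CPM was 1.27-, 1.46- and 1.28-fold the control mean. Summed reads of Deaf1 (1372 in control) rose by a log2 fold change of 2.30 ± 0.21 with cbc (edgeR, adjusted p = 1.55e-06), 1.91 ± 0.21 with PCF11 (1.27e-05) and 1.90 ± 0.21 with cbc plus PCF11 (9.76e-06). Deaf1 had the lowest pooled control usage of the 49, and it had the largest rise in summed reads among them in each genotype.

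The transcription factor gene ewg, related to human NRF1, was among the most proximal genes in control and had lost proximal reads. Its windows lie at chrX:270487-270517 and chrX:269614-269644 on the minus strand. Its proximal usage was 76.2 and 77.9% with cbc, 82.7 and 88.4% in PCF11 testes and 85.9 and 81.8% with cbc plus PCF11, against 93.6 and 96.0% in control, with no overlap. Proximal CPM of ewg was 1324 and 1460 with cbc, 1440 and 1657 in PCF11 testes and 1495 and 1567 with cbc plus PCF11, against 2769 and 2313 in control. Its distal window, the minor one, had 412 and 414, 301 and 217, and 246 and 348 CPM in the 3 genotypes in that order, against 191 and 97.1 in control. Summed reads of ewg (1554 in control) fell by 0.57 ± 0.17, 0.57 ± 0.17 and 0.55 ± 0.17 on the log2 scale with cbc, PCF11 and cbc plus PCF11 (edgeR, adjusted p = 0.0241, 0.0268 and 0.0246).

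The gene bin3, named for the Bicoid-interacting protein and related to the methylase of 7SK RNA, lost reads with hardly any shift between its sites. Its usage was 93.3 and 95.5% with cbc, 93.1 and 92.5% in PCF11 testes and 95.3 and 93.7% with cbc plus PCF11, against 96.7 and 95.5% in control, with cbc library 2 just under the lower control. Proximal CPM of bin3 was 4703 and 5372 with cbc, 5010 and 5717 in PCF11 testes and 5769 and 5759 with cbc plus PCF11, against 10917 and 8668 in control. Its distal CPM of 255 to 466 in the overexpression libraries overlapped the 370 and 410 of the controls. Summed reads of bin3 (5889 in control) fell by 0.93 ± 0.14, 0.82 ± 0.14 and 0.74 ± 0.14 on the log2 scale (edgeR, adjusted p = 0.000131, 0.000517 and 0.000859 with cbc, PCF11 and cbc plus PCF11).

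Su(var)3-3 and Clamp, which also act on chromatin but are not on the list of such genes used here, had lower mean usage in each genotype, and HDAC4 had higher mean usage. Su(var)3-3, the fly LSD1 histone demethylase, had 33.5 and 39.9% with cbc, 45.9 and 41.9% in PCF11 testes and 22.6 and 31.2% with cbc plus PCF11, against 55.6 and 52.5% in control. Its proximal CPM was 229 and 255, 246 and 217, and 101 and 158 in these genotypes, against 428 and 480, while its distal means were 1.08-, 0.76- and 0.90-fold the control mean. Clamp, a zinc-finger protein of the dosage compensation machinery, had 51.5 and 33.1% with cbc, 54.0 and 51.9% in PCF11 testes and 63.9 and 49% with cbc plus PCF11, against 67.3 and 75.6% in control. Clamp differed from Su(var)3-3 in that its proximal CPM was at or above control (means 1.33-, 1.16- and 1.29-fold) and its distal CPM higher (4.71-, 2.58- and 2.74-fold), and its windows overlap CG42748 on the opposite strand. Summed reads of Clamp rose with cbc (log2 1.20 ± 0.31, edgeR, adjusted p = 0.00905), and those of Su(var)3-3 fell with cbc plus PCF11 (0.82 ± 0.25 on the log2 scale, adjusted p = 0.0216). HDAC4, a class II histone deacetylase gene, had 83.7 and 84.3%, 65.0 and 84.0%, and 82.6 and 79.1% usage with cbc, PCF11 and cbc plus PCF11, against 70.3 and 68.9% in control, so that only PCF11 library 1 lay below the controls. Its summed reads fell with cbc plus PCF11 (0.99 ± 0.25 on the log2 scale, edgeR, adjusted p = 0.00724).

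The list of chromatin and transcription genes has 21 entries in the tables, of which 3 were members (Deaf1, JIL-1 and ewg). Summed reads of Deaf1 and JIL-1 rose and those of ewg fell in every genotype. Lists were assembled with earlier results of these data known, so their counts are no independent evidence.

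Among members of the ubiquitin system, Smurf gained reads at both windows and Nedd4 lost reads. Smurf encodes an E3 ligase that restrains BMP signalling, a pathway the testis stem cell niche uses, and its windows lie at chr2R:17603251-17603281 and chr2R:17603951-17603981 on the plus strand. Smurf usage was 38.6 and 40.3% with cbc, 53.6 and 59.8% in PCF11 testes and 58.2 and 49.8% with cbc plus PCF11, against 57.6 and 78.7% in control. The cbc libraries lay below both controls, while the other genotypes overlapped them. Distal CPM of Smurf was 645 and 612 with cbc, 389 and 495 in PCF11 testes and 385 and 562 with cbc plus PCF11, against 152 and 97.1 in control. Its proximal CPM was 406 and 414, 448 and 737, and 536 and 559 in these genotypes, against 206 and 358, so that both sites were above both controls in all 6 libraries. Summed reads (242 in control) rose by a log2 fold change of 1.35 ± 0.26, 1.34 ± 0.26 and 1.32 ± 0.26 (edgeR, adjusted p = 0.00117, 0.0014 and 0.00116 with cbc, PCF11 and cbc plus PCF11).

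Nedd4, another E3 ligase of the same family, had 57.5 and 67.7% usage with cbc, 76.7 and 72.8% in PCF11 testes and 53.4 and 68.5% with cbc plus PCF11, against 76.1 and 78.6% in control. Its proximal CPM was 690 and 730, 877 and 737, and 449 and 650 in these genotypes, against 1426 and 1281, without overlap. Summed reads of Nedd4 (1018 in control) fell by 0.62 ± 0.20, 0.70 ± 0.20 and 0.97 ± 0.20 on the log2 scale (edgeR, adjusted p = 0.0342, 0.0204 and 0.00215); the PCF11 call was lost without either PCF11 library or without control library 1. Smurf and Nedd4 are the 2 members among 11 entries of the ubiquitin list. Outside that list, Cbl, an E3 ligase for receptor kinases, fell with cbc plus PCF11 (1.45 ± 0.31 on the log2 scale, edgeR, adjusted p = 0.00272). Rnf146, an E3 ligase that recognises poly-ADP-ribose, fell with cbc (1.13 ± 0.31, adjusted p = 0.0134), a call lost without either cbc library or without control library 2. Rnf146 usage was 72.6 and 73.2%, 81.0 and 73.6%, and 88.1 and 87.3% with cbc, PCF11 and cbc plus PCF11, against 59.1 and 84.6% in control, so that the cbc plus PCF11 libraries alone lay past both controls.

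The signalling genes PRL-1 (a phosphatase) and trc (the NDR kinase tricornered), with Smurf, are 3 members of 13 entries on the kinase, phosphatase and signalling list. PRL-1 had 48.6 and 50.2% usage with cbc, 59.9 and 58.3% in PCF11 testes and 48.2 and 47.0% with cbc plus PCF11, against 51.9 and 63.6% in control. Both genotypes with the cbc transgene lay below both controls and PCF11 lay between them. Summed reads of PRL-1 (3313 in control) rose with cbc plus PCF11 (log2 0.52 ± 0.14, edgeR, adjusted p = 0.011). Its windows overlap CG46309 on the same strand. For trc usage was 78.4 and 83.7%, 87.8 and 88.7%, and 81.4 and 80.4% with cbc, PCF11 and cbc plus PCF11, against 78.7 and 85.0%, and its summed reads fell with cbc (0.62 ± 0.18 on the log2 scale, edgeR, adjusted p = 0.0168) and with cbc plus PCF11 (0.62 ± 0.18, adjusted p = 0.014).

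The members of Notch and Ras signalling rested on few reads or on uneven controls. For numb, an inhibitor of Notch, usage was 23.9 and 42.9% with cbc, 6.67 and 21.7% in PCF11 testes and 38.9 and 16.7% with cbc plus PCF11, against 46.2 and 72.4% in control, from only 71 control reads. Dl, the Notch ligand Delta and the only member with 3 windows, had 60 and 61.2%, 56.8 and 47.2%, and 67.6 and 69.2% in these genotypes, against 53.4 and 63.9%. Nf1, a GTPase-activating protein for Ras, had 56.5 and 64.7%, 70.5 and 78.9%, and 68.9 and 66.8%, against 42.6 and 62.2%. In Nf1 the PCF11 and cbc plus PCF11 libraries lay above both controls, and none of these 3 genes passed the test for summed reads in any genotype (49 members, edgeR).

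Of 15 entries on the vesicle traffic and cytoskeleton list, 2 were members. fwd encodes the phosphatidylinositol 4-kinase needed for cytokinesis of male meiosis, and its windows lie at chr3L:306190-306220 and chr3L:305394-305424 on the minus strand. Its usage was 75.8 and 64.8% with cbc, 69.0 and 67.4% in PCF11 testes and 74.7 and 69.7% with cbc plus PCF11, all within the 60 and 77.7% of control. Proximal CPM of fwd was 1761 and 1435, 1138 and 1370, and 1124 and 1406, against 444 and 528 in control, and distal CPM 561 and 778, 512 and 662, and 381 and 611, against 296 and 152. Both sites were above both controls in all 6 libraries, and summed reads of fwd (414 in control) rose by a log2 fold change of 1.68 ± 0.21, 1.38 ± 0.21 and 1.31 ± 0.20 (edgeR, adjusted p = 2.78e-05, 0.000206 and 0.000167 with cbc, PCF11 and cbc plus PCF11). Sec24AB, a cargo-binding subunit of the COPII coat, had 81.8 and 85.4%, 89.2 and 85.1%, and 87.1 and 84.2% usage, against 88.3 and 93.0%, and its summed reads did not pass the test in any genotype.

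Marf was the 1 member of 8 entries on the mitochondria and metabolism list. Its usage was 46.9 and 49.9% with cbc, 63.2 and 62.5% in PCF11 testes and 55.7 and 48.3% with cbc plus PCF11, against 54.3 and 50.0% in control. The cbc libraries lay below both controls and the PCF11 libraries above both, and the replicates of each were within a few points. Dic1 had 59.2 and 58.3%, 61.3 and 68.7%, and 54.7 and 54.5% usage, against 48.8 and 53.3%, above both controls in all 6 libraries, and its summed reads rose with cbc plus PCF11 (log2 0.64 ± 0.21, edgeR, adjusted p = 0.0299).

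Several members are listed under a gene number. CG8878 (bsd in the reference annotation; chr2R:12146585-12146615 and chr2R:12146024-12146054, minus strand) had 41.2 and 37.8% usage with cbc, 33.1 and 35.8% in PCF11 testes and 32.1 and 30.5% with cbc plus PCF11, against 51.9 and 52.5% in control. Its proximal CPM was 915 and 762, 801 and 758, and 651 and 661, against 1581 and 1921, while its distal CPM was 1307 and 1257, 1622 and 1357, and 1380 and 1507, against 1468 and 1739. The proximal reads were thus below both controls in all 6 libraries and the distal reads overlapped them in the PCF11 and cbc plus PCF11 libraries. Summed reads of CG8878 (1989 in control) fell by 0.66 ± 0.17, 0.56 ± 0.17 and 0.68 ± 0.17 on the log2 scale (edgeR, adjusted p = 0.00824, 0.0229 and 0.00648), the cbc call being lost without cbc library 2 or control library 2. Its windows overlap Hen1 on the opposite strand. CG5726 had 82.1 and 85.0%, 71.9 and 81.5%, and 79.5 and 83.4% usage, against 64.5 and 68.3%, with proximal CPM of 1338 and 1285, 1095 and 1083, and 1032 and 1448, against 822 and 504. Its windows overlap CG10916 on the opposite strand, and its summed reads did not pass the test. CG46280, the member with most reads, had 73.0 and 74.9%, 65.5 and 71.1%, and 61.7 and 62.5% usage, against 69.5 and 61.2%.

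Further members had lower usage, some of them with more distal reads. Lrch, a protein with leucine-rich repeats, had 36.3 and 29.9% usage with cbc, 56.3 and 60.8% in PCF11 testes and 47.9 and 37.1% with cbc plus PCF11, against 61.2 and 72.2% in control. Its distal CPM was 516 and 742, 301 and 250, and 290 and 453 in these genotypes, above the 156 and 194 of the controls. These values are of the entry Lrch-PA. Another entry of the gene, Lrch-PC, went the other way, with proximal usage above both controls in all 6 libraries. CG8155 had 40.2 and 24.0%, 60.9 and 55.3%, and 63.7 and 35.0%, against 63.1 and 59.5%, so that both cbc libraries, and 1 library each of the other genotypes, lay below both controls; it overlaps Xpc on the opposite strand. CG11357 had 35.3 and 40.3%, 42.2 and 36.7%, and 36.4 and 36.5%, against 42.3 and 72.8%. There all 6 libraries lay under the lower control, at 42.3%, and far under the other. pre-mod(mdg4)-U had 50.3 and 61.5%, 67.3 and 50.0%, and 60.9 and 49.6%, against 68.6 and 91.4%, and overlaps mod(mdg4) on the opposite strand and other pre-mod(mdg4) entries on the same one. In alpha-Est5, an esterase gene with 139 control reads, usage was 41.9 and 30.6%, 39.3 and 33.8%, and 51.1 and 35.3%, against 47.1 and 67.6%, and its summed reads rose with cbc plus PCF11 (log2 1.18 ± 0.37, edgeR, adjusted p = 0.025), a call lost without cbc plus PCF11 library 1 or control library 2.

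In DOR and qkr58E-1 mean usage was higher than in control in each genotype, in DOR with fewer distal reads in most libraries. DOR, related to the autophagy factor TP53INP, had 72.7 and 72.5% with cbc, 80.6 and 74.1% in PCF11 testes and 73.9 and 71.1% with cbc plus PCF11, against 64.8 and 60% in control. Its distal CPM was 943 and 916, 595 and 762, and 1147 and 1564, against 1683 and 1311. qkr58E-1, an RNA-binding KH-domain gene, had 78.5 and 66.8%, 82.2 and 81.7%, and 80.3 and 88.3%, against 77.7 and 56.5%. Its summed reads rose with cbc (log2 1.07 ± 0.28, edgeR, adjusted p = 0.0103) and with cbc plus PCF11 (1.10 ± 0.28, adjusted p = 0.00782); its windows overlap Mes4 on the opposite strand. gdl-ORF39 had 87.2 and 83.8%, 52.6 and 65.0%, and 83.3 and 84.0%, against 83.6 and 50.4%, and shares its strand with gdl. Its summed reads (241 in control) fell in all 3 genotypes, by 1.40 ± 0.46, 1.39 ± 0.46 and 1.73 ± 0.47 on the log2 scale (edgeR, adjusted p = 0.0348, 0.041 and 0.0105), with the call lost in 5, 7 and 1 of 15 alternatives.

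The other genes near full proximal usage and the rest of the 49 follow. CG7766 had 85.8 and 86.4% usage with cbc, 82.4 and 90.3% in PCF11 testes and 86.3 and 84.3% with cbc plus PCF11, against 93.6 and 90.9% in control. Its proximal CPM was 4911 and 4772, 5339 and 5738, and 5803 and 4708 in these genotypes, against 9235 and 7135, without overlap. CG7766 thus lost proximal reads as bin3 did, and its summed reads (5120 in control) fell by 0.66 ± 0.14, 0.46 ± 0.14 and 0.52 ± 0.14 on the log2 scale (edgeR, adjusted p = 0.00278, 0.0256 and 0.0103). CG2201 had 75.0 and 67.3%, 87.3 and 83.8%, and 81.8 and 80%, against 96.4 and 91.1%, from 201 control reads. PIG-L, of the GPI anchor pathway, had 48.2 and 23.3%, 37.2 and 44.0%, and 37.1 and 45.1%, against 58.2 and 51.9%, and overlaps CG4836 on the opposite strand. CG2277 had 78.6 and 86.9%, 79.3 and 80.9%, and 80.7 and 77.5%, against 75.8 and 74.2%, and slim 64.9 and 65.0%, 70.3 and 77.4%, and 72.3 and 63.7%, against 59.6 and 60.2%, both of them above both controls in all 6 libraries. The other 12 genes (Cbl, enc, tst, MED26, rdx, sgll, CG16711, CG2258, CG3558, CG5589, CG6218 and CG30389) had changes of mean usage from -13.2 to 10.1 points with cbc, from -7.26 to 7.84 with PCF11 and from -14.1 to 8.43 with cbc plus PCF11, lower in 7, 4 and 6 of them. Among them CG30389, with 3697 control reads, had 76.5 and 71.9%, 78.1 and 80.5%, and 81.5 and 74.4%, against 79.6 and 77.1%, and tst had 55.5 and 54.5%, 55.3 and 64.5%, and 57.0 and 64.0%, against 57.5 and 46.6%.

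All 49 passed the filters on low reads, which left 516 entries for usage and 523 for summed reads. Summed reads, which the choice used only through the minimum of 50, changed in a larger share of the 49 genes than of all entries with cbc and with cbc plus PCF11. With cbc 18 of the 49 passed (36.7% against 23.1% of all entries tested), 8 higher (12.6% of all) and 10 lower (10.5%), with PCF11 12 (24.5% against 21.4%), 4 higher (11.5%) and 8 lower (9.94%), and with cbc plus PCF11 25 (51.0% against 32.9%), 11 higher (18%) and 14 lower (14.9%). The entries tested needed only a mean of 10 reads per library, so the 49 and all entries were not matched for reads. Whether the 49 differ from the other entries in this was not tested. In bulk testes, fewer cells of a type and less RNA per cell cannot be told apart. The 2 of 17 cyst and hub genes with entries summed to 5715 and 6827 CPM with cbc, 4951 and 5313 in PCF11 testes and 4899 and 5200 with cbc plus PCF11, against 6438 and 8383 in control. The 3 of 23 germ cell genes summed to 3847 and 4245, 3479 and 4326, and 3667 and 4062 CPM, against 5048 and 4604. Both sums lay below both controls in every overexpression library, apart from the cyst and hub sum in cbc library 2. By single gene, only chinmo and simj lay below both controls in every overexpression library, and twe did so except in cbc library 2. For zfh1 the libraries had 1497 and 1922 CPM with cbc and 1376 and 1195 in PCF11 testes. With cbc plus PCF11 zfh1 had 1498 and 1444, against 1328 and 1542 in control. Rbp9 had 2080 and 2133, 1920 and 2394, and 2146 and 2150 CPM, against 2088 and 2382, and so overlapped its controls. Of the 5 genes chinmo passed the test, falling with PCF11 (0.64 ± 0.16 on the log2 scale, edgeR, adjusted p = 0.0103) and with cbc plus PCF11 (0.74 ± 0.16, adjusted p = 0.00292). The part of such cells in the summed reads was not tested. In all 3 comparisons 11 genes passed: Deaf1, JIL-1, Smurf and fwd rose, and CG7766, CG8878, Nedd4, bin3, enc, ewg and gdl-ORF39 fell. The comparisons share the control libraries. The share of all entries that passed in all 3 is not given here, so nothing is read from the 11. The median log2 fold change over the 49 was -0.06, -0.12 and -0.06, against -0.03, 0.00 and 0.02 over all entries. enc, the oogenesis gene encore, had 1840 and 1954, 2079 and 2028, and 1839 and 1651 proximal CPM with cbc, PCF11 and cbc plus PCF11, against 3377 and 3897, and its summed reads fell by 0.62 ± 0.15, 0.67 ± 0.15 and 0.73 ± 0.15 on the log2 scale (edgeR, adjusted p = 0.00562, 0.00334 and 0.00157). Some fits that left a genotype with 1 library called fewer of the 49 for summed reads. Over all entries, too, fits without 1 library called fewer at their lowest, so nothing is read from the drop.

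**Figure D4:**
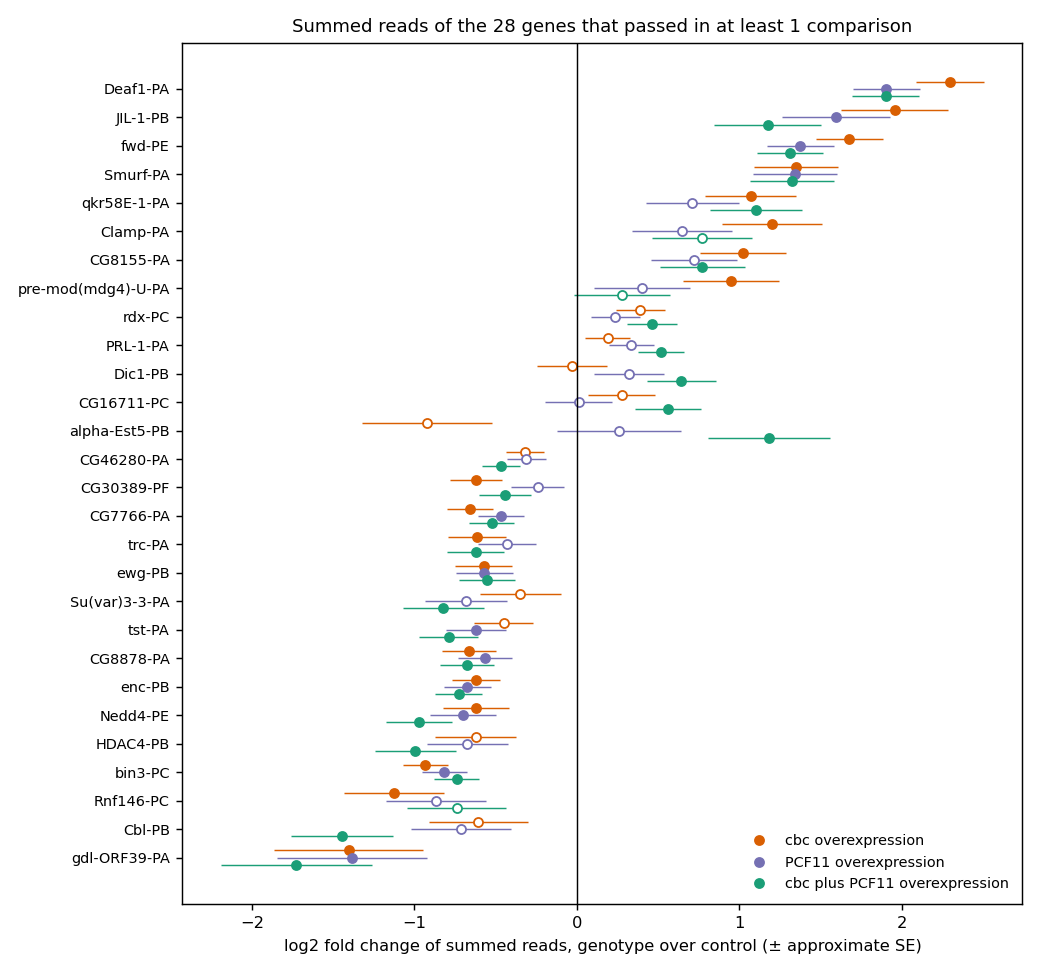
Log2 fold change of summed reads over control (x axis; bars are approximate SE) in cbc, PCF11 and cbc plus PCF11 testes for the 28 of 49 genes that passed in 1 or more comparisons; filled points passed at an adjusted p under 0.05, open points did not. Deaf1, JIL-1, fwd and Smurf lie above 1 in all 3 genotypes, and gdl-ORF39 lies below -1 in all 3. The share of all entries that passed in 1 or more is not given here.

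The overexpression genotypes could be compared with each other by a test, since none of their libraries took part in the choice. No member passed the test of usage between any 2 of them, and neither did any of the 516 entries (edgeR, 0%), although DESeq2 called 4, 1 and 5 entries and none of the 49 for cbc plus PCF11 against cbc, cbc plus PCF11 against PCF11, and cbc against PCF11. At an unadjusted p under 0.05 edgeR had 1, 3 and 4 members among 32, 18 and 44 entries. The median difference over the 49 was 0.07 points for cbc plus PCF11 against cbc and -1.48 for cbc plus PCF11 against PCF11. For cbc against PCF11 it was -4.39. In the other entries these medians were 0.24, -0.89 and -1.23, but their control usage was much lower, so the points are not compared. As fitted log2 odds ratios, the medians of the 49 were 0.01, -0.16 and -0.37 in the same order. Over all 516 entries they were 0.04, -0.17 and -0.26. Both cbc libraries lay below both PCF11 libraries in 22 of the 49 and above both in 9, against 31.6 and 10.2% of all entries. Both cbc plus PCF11 libraries lay below both PCF11 libraries in 18 and above in 5 (24.6 and 9.64%), and below both cbc libraries in 7 and above in 12 (14.2 and 25%). The means of the 3 genotypes lay within 10 points of each other in 28 of the 49, and over 20 points apart in gdl-ORF39, CG8155, Lrch and CG31224. The same count for the other entries is not given here, so nothing is read from the 28.

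Single members with the lowest p between genotypes differed by moderate amounts, none past the correction. CG46280 had lower usage with cbc plus PCF11 (61.7 and 62.5%) than with cbc (73.0 and 74.9%), a log2 odds ratio of -0.80 ± 0.24 (edgeR, adjusted p = 0.425). In the same comparison CG8878 had -0.52 ± 0.29 (adjusted p = 0.773). Marf had lower usage with cbc (46.9 and 49.9%) than with PCF11 (63.2 and 62.5%), at -0.85 ± 0.27 (edgeR, adjusted p = 0.582). CG31224, which overlaps qin on the opposite strand, had 51.2 and 49.4% with cbc against 69.0 and 76.9% with PCF11, at -1.42 ± 0.49, and Lrch had -1.52 ± 0.61 (adjusted p = 0.582 for each). Against PCF11, cbc plus PCF11 was lower in PRL-1 (-0.67 ± 0.26), trc (-0.83 ± 0.34) and Marf (-0.64 ± 0.27), with an adjusted p of 0.992 for each. In these comparisons the libraries of the 2 genotypes did not overlap. For mei-218, a meiotic recombination gene whose windows overlap mei-217 and CG5004, usage was 93.0 and 99.2% with cbc plus PCF11 and 74.5 and 86.0% with cbc (2.68 ± 1.54, adjusted p = 0.792), and its controls lay at 97.1 and 74.7%.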

How the data were processed

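QuantSeq forward 3' end libraries of testes (8 libraries, 4 groups of 2) were used. Per the submitters' processing notes, Bowtie and SAMtools were used with the dm6 (BDGP6) genome. The deposited raw counts are reads in 30 bp windows around 1098 supplied sites, made by the authors with PolyA-miner without strand and without molecular identifiers, per the log of the run. The sources used here do not give the trimming. The deposited score of distal against proximal usage and adjusted p-value per gene are the authors' own, per the file headers, and served to count calls.

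The 3 tables repeat the same control counts, so 8 libraries entered 1 table of 1082 windows in 529 entries. Reads at the most proximal window were set against all more distal ones. Usage (516 entries with a mean of 10 reads per library and 5 reads at each side) and summed reads (523 entries, TMM factors) were tested with edgeR 4.0.16 (quasi-likelihood, all 8 libraries, R 4.3.3), Benjamini-Hochberg over all entries, threshold 0.05; SEs are approximate. Limma 3.58.1 was loaded with it, and DESeq2 1.42.0 was an alternative. Scripts were tested on simulated data. An Ensembl annotation of BDGP6 gave genes and transcript ends (16955 of 17017 matched genes had the same start and end), and window bounds are as the tables give them.

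The members and the lists of genes were chosen with earlier results of these data known. Genes named are, among members, those with the largest shifts past both controls per genotype (6 lower, 3 higher), the 3 lowest p between genotypes, the extremes of control usage, the 5 with most reads, the 4 largest rises and falls of summed reads per genotype, and members of the lists; others were named after their values were seen. No sequences were used.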

Additional observations from a re-analysis of the deposited data

Results flagged for a closer look

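Marf was set apart because its 2 cbc libraries lay below both controls and its 2 PCF11 libraries above both. The mean usage with cbc minus that with PCF11 was -14.4 percentage points. The test of this difference (edgeR) gave a log2 odds ratio of -0.85 ± 0.27 with an adjusted p of 0.582, so it did not pass over the 516 entries. Its summed reads did not pass the test in any genotype. The windows of Marf overlap lncRNA:CR44816 on the opposite strand, and the part of that gene's reads in the result was not tested.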

How the results depend on the processing

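The labels do not say that replicate numbers mark a shared batch, and deviations of same-numbered libraries correlated at -0.05 to 0.07 for usage and -0.10 to 0.13 for summed reads. With a replicate block the members called for usage against control were 3, 1 and 4 (cbc, PCF11 and cbc plus PCF11). Over all entries the block called 26, 41 and 42 for usage, against 39, 54 and 53 without it. For summed reads it called 18, 12 and 22 members. Its calls of summed reads over all entries are not given here, so nothing is read from those counts. The medians stayed at -4.12, -2.40 and -2.25 points, and the block called none between overexpression genotypes. DESeq2 called 5, 5 and 5 members for usage against control (62, 71 and 74 entries). Fits on only the 4 libraries compared called 3, 1 and 0 members (23, 29 and 15 entries). Leaving out 1 library gave 0 to 3 members with cbc (3 to 38 entries), 0 to 2 with PCF11 (12 to 50) and 0 to 3 with cbc plus PCF11 (7 to 44). For summed reads it gave 6 to 20 with cbc (68 to 144 entries), 4 to 12 with PCF11 (46 to 121) and 12 to 24 with cbc plus PCF11 (95 to 163). The cause was not tested, though such fits have fewer samples. The medians ranged from -6.08 to -2.50, -3.79 to -0.61 and -4.08 to -0.84 points without 1 library. For entries chosen in the overexpression genotype, by libraries that also enter the change, they were 7.68, 7.30 and 8.13. A stricter threshold of 60% gave -5.90, -3.24 and -5.58, and one of 40% gave -1.92, -0.84 and -0.65; without overlapping genes the cbc median was -2.13. Of the named values tested, those for usage between genotypes had no call to lose, and all 129 alternatives stayed without one. For summed reads 334 of 360 alternatives kept the call and 26 lost it. HDAC4 with cbc plus PCF11 and enc with PCF11 each lost the call in 1 alternative. Only the largest rises and falls per genotype were put through them. Other calls of summed reads given above, such as those of ewg, CG7766, trc, Clamp, Su(var)3-3, PRL-1, qkr58E-1 and Dic1, were not. No alternative changed direction. With 2 libraries a group, an exact permutation test of single genes cannot go below p = 0.333.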

Other observations

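Deaf1 and trc are convergent neighbours, their windows 1027 bp apart on chromosome 3L. Summed reads were 10741 and 12386 CPM with cbc, 8037 and 9581 in PCF11 testes and 6215 and 11343 with cbc plus PCF11 for Deaf1, against 2438 and 2264 in control. For trc they were 2242 and 2242, 2150 and 2952, and 2379 and 2084 CPM, against 3572 and 3299. Deaf1 lay above and trc below both controls in all 6 overexpression libraries.

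Lrch and Cbl each have another entry with other windows that is not among the 49. For Lrch-PC proximal usage was 65.4 and 83.3% with cbc, 57.1 and 67.5% in PCF11 testes and 72.0 and 71.4% with cbc plus PCF11, against 46.8 and 36.4% in control (113 control reads). All 6 libraries lay above both controls there, whereas in Lrch-PA all 6 lay below both. For Cbl-PA usage was 8.42 and 3.00%, 12 and 20.2%, and 11.3 and 13.6%, against 0.658 and 3.23% (307 control reads), so that PCF11 and cbc plus PCF11 lay above both controls and cbc overlapped them.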
